A study of Mus musculus with 4 samples.

Results

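The genes of the mouse mitochondrial genome were followed in RNA of splenic B cells. All rows of the gene count table whose symbol starts with mt- were taken, which gave 37 of 41342 named genes: 13 protein genes, 2 rRNA genes and 22 tRNA genes. Their positions and strands were the same in GENCODE M21 (GRCm38) for 37 of 37. Averaged over the 4 libraries, 17 members reached 50 counts, namely 12 protein genes, both rRNA genes and 3 tRNA genes. The other 20 are described below by their counts alone.

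The study compared B cells of mice in which the palindrome of the IgH 3′ regulatory region (3′RR), a cluster of enhancers downstream of the heavy chain genes, had been taken apart. ΔleftPAL mice lack the hs3a and hs1,2 enhancers and the left-side inverted repeats (IRIS) between them, whereas ΔIRIS mice lack the same repeats but carry hs1,2 and an inverted hs3a. Both genotypes thus lack the left-side repeats, while those right of the centre remain, and both were bred on a 129 background. CD43- splenocytes were used directly (resting cells) or after culture for 48 h with 5 µg per ml of LPS, a bacterial lipopolysaccharide that makes B cells grow and divide. The labels describe each RNA as a pool of cells from 4 animals, while the methods describe RNAs pooled by pairs. The methods also describe cells of 4 mice per genotype taken before and after stimulation, so resting and LPS libraries of a genotype may share animals. There was 1 library per genotype and condition, so no difference below has a replicate check. The wt libraries were not analysed here.

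Mitochondrial DNA is a small circle that encodes subunits of the respiratory chain and of ATP synthase, together with the rRNAs and tRNAs that translate them inside the organelle. Both strands are transcribed into long precursors, which are cut at the tRNAs that lie between the genes. Most genes are read in one direction, here called heavy-strand genes, whereas mt-Nd6 and a minority of the tRNA genes lie on the opposite, light strand. Every other protein of the organelle, including the remaining subunits of the same complexes and the enzymes that copy, transcribe and process its genome, is made from nuclear genes.

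The libraries held 23615496 to 29776108 counts on named genes, and counts were scaled to CPM with TMM effective library sizes. A log2 ratio between libraries is given with its exact 95% interval, which covers counting error only. It leaves out differences between animals, pools and library preparations. Copies made by PCR are not independent molecules, so it can be too narrow even for counting error. Genes typical of several other cell types were much higher in resting libraries. The summed level of 8 erythroid genes was 41571 and 29155 CPM in resting ΔleftPAL and ΔIRIS cells against 58.3 and 124 CPM after LPS. For 7 myeloid genes these sums were 366 and 481 CPM at rest against 14.2 and 20.03 CPM, and for 8 B cell genes 4911 and 4065 CPM against 2554 and 2604 CPM. Summed over 6 plasmablast genes, levels were higher after LPS instead, with 625 and 897 CPM at rest against 1815 and 1279 CPM. All of these markers were detected in at least 1 library, and their part in the values below was not tested. In such bulk RNA, fewer cells of a type and less RNA per cell cannot be told apart.

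For 5 of the protein genes, levels could not be read from their own rows alone, because part of the mitochondrial genome has a near-identical copy on chromosome 1. The copy spans 4663 bases at chr1:24611535-24616197 (GRCm38, minus strand) and holds 7 unprocessed pseudogenes in the order of the mitochondrial genes. Gm28661 is identical to mt-Co2 over 681 bases, Gm10925 to mt-Atp6 over 678 and Gm28437 to mt-Co3 over 783. Gm10222 matches mt-Nd4l over 294 bases without a difference, as does Gm28439 the first 876 bases of mt-Nd4. Gm28438 differs from mt-Nd3 by 1 base in 345, and Gm29216 matches the 3′ end of mt-Co1. Below, the first pair of sequences shows that single difference in capitals (T3C, counted from the first base of both genes), and the second pair shows in capitals where the identity of mt-Co1 and Gm29216 begins. They are from GENCODE M21 transcripts and are given 5′ to 3′.

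mt-Nd3 (chrM:9459-9518, plus strand): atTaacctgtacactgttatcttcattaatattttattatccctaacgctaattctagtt

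Gm28438 (chr1:24613060-24613119, minus strand): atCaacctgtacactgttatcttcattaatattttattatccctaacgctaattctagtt

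mt-Co1 (chrM:6364-6423, plus strand): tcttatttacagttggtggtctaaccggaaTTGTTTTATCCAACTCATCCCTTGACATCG

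Gm29216 (chr1:24616155-24616197, minus strand): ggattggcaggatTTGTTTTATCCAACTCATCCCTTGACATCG

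The authors counted reads that map to several places at their primary alignment, and for some of these genes that place was the copy. mt-Co2 itself received 74, 121, 112 and 128 counts in resting ΔleftPAL, LPS ΔleftPAL, resting ΔIRIS and LPS ΔIRIS cells, an order kept in every sentence that gives 4 values. Its copy Gm28661 received 38507, 70143, 67528 and 69559. Over the libraries, 98.0% to 99.9% of the reads of mt-Co2, mt-Atp6, mt-Co3 and mt-Nd3 and their copies were on the copy. For mt-Co1 it was 29.7% to 34.1%, and for mt-Nd4l and mt-Nd4 under 1%. The kallisto estimates, which share such reads out by a model, put 3.64% to 42.6% of the mt-Co2 reads and at most 27.4% of the mt-Nd3 reads on the copy.

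The sum of gene and copy was therefore used for these genes, a choice made after the values were seen. That sum was 0.94 to 0.99 of the same sum in the kallisto estimates for mt-Co1, mt-Co2, mt-Co3 and mt-Nd3, but 1.51 to 1.55 of it for mt-Atp6. Transcripts of the mitochondrial genome and of the chromosome 1 copy cannot be told apart in such a sum. The other protein genes except mt-Atp8, 7 in number, were little touched by a copy (mt-Nd1, mt-Nd2, mt-Nd4l, mt-Nd4, mt-Nd5, mt-Nd6 and mt-Cytb), and the results are also given for them alone.

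mt-Atp8, a subunit of ATP synthase, was nearly absent from the gene counts, with 0, 3, 5 and 3 counts. It lies between mt-Co2 and mt-Atp6, whose reads were nearly all on the chromosome 1 copy, but no annotated copy of mt-Atp8 itself was found there. Whether its reads were placed in that stretch was not tested. The last 43 bases of mt-Atp8 are also the first bases of mt-Atp6, printed in capitals below. The kallisto table held 2582, 4623, 6086 and 5225 estimated counts for it, so no fold is given from the gene counts. In these estimates the log2 ratio on LPS was 0.82 (0.75 to 0.89) in ΔleftPAL and -0.07 (-0.13 to -0.02) in ΔIRIS cells.

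mt-Atp8 (chrM:7910-7969, plus strand): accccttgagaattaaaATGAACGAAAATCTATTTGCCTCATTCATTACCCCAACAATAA

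**Figure D1:**
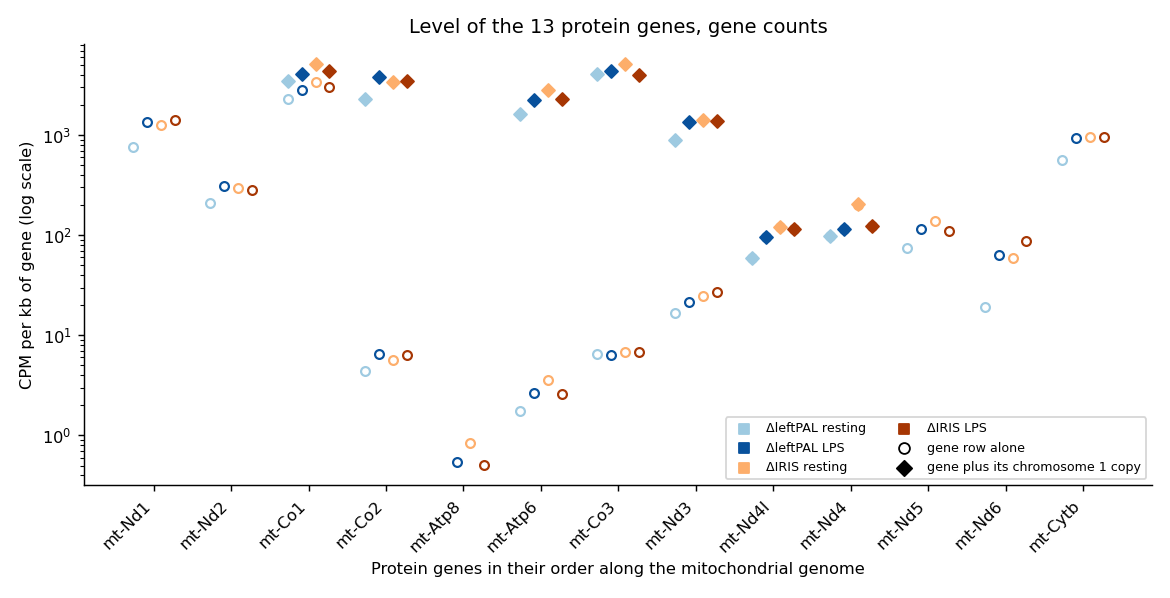
Level of each of the 13 protein genes in CPM per kb of gene (log scale), in genome order and for the 4 libraries. Open circles are the row of the gene alone, and diamonds the gene plus its chromosome 1 copy. The open circles of mt-Co2, mt-Atp6, mt-Co3 and mt-Nd3 lie far below their diamonds, and apart from mt-Co3 resting ΔleftPAL is the lowest library of every gene when copies are added (its mt-Atp8 value is 0 and cannot be drawn on this axis).

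Mitochondrial genes took 16.6%, 17.3%, 22.7% and 17.6% of all gene counts. Nearly all of this was rRNA, with 16.02%, 16.6%, 21.8% and 16.8%, although cytosolic and mitochondrial rRNA had been depleted with Ribo-Zero Gold before sequencing. The protein genes took 0.565%, 0.725%, 0.861% and 0.778%, or 1.39%, 1.69%, 2.01% and 1.72% with their copies. Resting ΔIRIS cells held the highest share and resting ΔleftPAL cells the lowest, whereas the LPS libraries lay close together between them.

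The protein genes differed widely in level. Per kb of gene, mt-Co3 and mt-Co1, core subunits of cytochrome c oxidase (complex IV), were the highest, with 4045, 4400, 5128 and 4015 CPM per kb for mt-Co3 and 3498, 4078, 5113 and 4336 CPM per kb for mt-Co1. mt-Co2, the third core subunit, came next in each library on this scale, though not in kallisto TPM. mt-Nd6 was the lowest of the 12 genes in gene counts, at 19.2, 63.4, 58.5 and 88.3 CPM per kb, whereas in kallisto TPM mt-Nd5 was below it in each library. In gene counts the highest gene exceeded the lowest by 210-fold in resting ΔleftPAL cells, 69.4-fold after LPS, and 87.6-fold and 49.1-fold in ΔIRIS cells.

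The next comparison asked how these RNAs differ between resting and LPS-activated cells of each genotype. In ΔleftPAL cells, the 12 protein genes with enough counts (each with its copy where it has one) were all higher after LPS in gene counts, with a median log2 ratio of 0.60, whereas in ΔIRIS cells the median was -0.06, with 3 intervals above 0 and 6 below. In gene counts only mt-Nd6 in ΔleftPAL cells reached 2-fold. In kallisto estimated counts it did not (0.84), while mt-Co2 did without its copy (1.32) but not with it (0.84). mt-Nd4l lay at the threshold there, with 1.01, or 0.99 once 0.5 CPM was added. As a background, 35.6% of the 11286 genes tested were at least 2-fold apart in ΔleftPAL cells and 38.9% in ΔIRIS cells, with medians of 0.12 and 0.13 over all genes. The summed protein genes gave a log2 ratio of 0.45 (95% interval 0.44 to 0.46) in ΔleftPAL and -0.11 (-0.11 to -0.10) in ΔIRIS cells from their own rows, and 0.38 and -0.19 with the copies. For the 7 genes little touched by a copy, the ratios were 0.72 and -0.01. In kallisto estimated counts the ΔIRIS ratio of the summed protein genes was 0.09 without the copies and -0.02 with them, and 0.16 for the 7 genes. Its sign thus depended on the table and on the genes and copies summed. In kallisto TPM, 10 of the 12 genes were higher in ΔleftPAL cells, with mt-Co3 (-0.08) and mt-Nd3 without its copy (-0.10) below 0. In ΔIRIS cells only 1 of the 12, mt-Co2 without its copy (0.53), was above 0 in TPM, and 0 of 12 were with copies added.

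Complex I (NADH dehydrogenase) contains 7 of these subunits. mt-Nd1 (chrM:2751-3707) stood at 725 and 1295 CPM in resting and LPS ΔleftPAL cells and at 1207 and 1341 CPM in ΔIRIS cells, log2 ratios of 0.84 and 0.15. mt-Nd2 (chrM:3914-4951) stood at 220 and 319 CPM in ΔleftPAL cells (0.54) and at 308 and 295 CPM in ΔIRIS cells (-0.06, positive in kallisto estimates). These genes shared a low value in resting ΔleftPAL cells and similar values in the other libraries.

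The remaining complex I genes followed the same order at rest. mt-Nd3 with its copy had 312, 466, 492 and 482 CPM, ratios of 0.58 and -0.03. mt-Nd4l, with 430, 759, 1036 and 1003 counts of its own, gave 0.68 and -0.06 with its copy, and both this ΔIRIS ratio and that of mt-Nd3 were positive in kallisto estimates. In gene counts, mt-Nd4 and mt-Nd5 were the genes with the clearest opposite directions. mt-Nd4 (chrM:10167-11544) with its copy had 136, 157, 279 and 169 CPM, a ratio of 0.21 (0.14 to 0.28) in ΔleftPAL cells and of -0.73 (-0.78 to -0.68) in ΔIRIS cells. mt-Nd5 (chrM:11742-13565) had 136, 208, 251 and 200 CPM, a ratio of 0.62 (0.55 to 0.68) against -0.33 (-0.38 to -0.28). In kallisto estimated counts mt-Nd4 gave 0.61 and -0.35, and mt-Nd5 gave 0.89 and only -0.05 (-0.09 to -0.005). Resting ΔIRIS cells held the highest value of both genes.

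mt-Cytb (chrM:14145-15288), the only mitochondrial subunit of complex III (the cytochrome bc1 complex), had 643 and 1067 CPM in ΔleftPAL cells, a ratio of 0.73 (0.70 to 0.76). In ΔIRIS cells it had 1087 and 1085 CPM, a ratio of -0.00 (-0.03 to 0.02) that was positive in kallisto estimates. Of complex IV, mt-Co1 (chrM:5328-6872) with its copy had 5404, 6301, 7899 and 6699 CPM, ratios of 0.22 and -0.24. mt-Co2 (chrM:7013-7696) with its copy had 1580, 2608, 2327 and 2377 CPM, ratios of 0.72 and 0.03, the latter negative when scaled to total counts. mt-Co3 (chrM:8607-9390) with its copy had 3172, 3450, 4020 and 3148 CPM, ratios of 0.12 and -0.35. mt-Atp6 (chrM:7927-8607), the proton channel subunit of ATP synthase (complex V), had 1097, 1521, 1920 and 1560 CPM with its copy, ratios of 0.47 and -0.30. Genes of the same strand thus did not share one common ratio in either genotype, from 0.12 for mt-Co3 to 0.84 for mt-Nd1 in ΔleftPAL cells and from -0.73 for mt-Nd4 to 0.15 for mt-Nd1 in ΔIRIS cells.

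**Figure D2:**
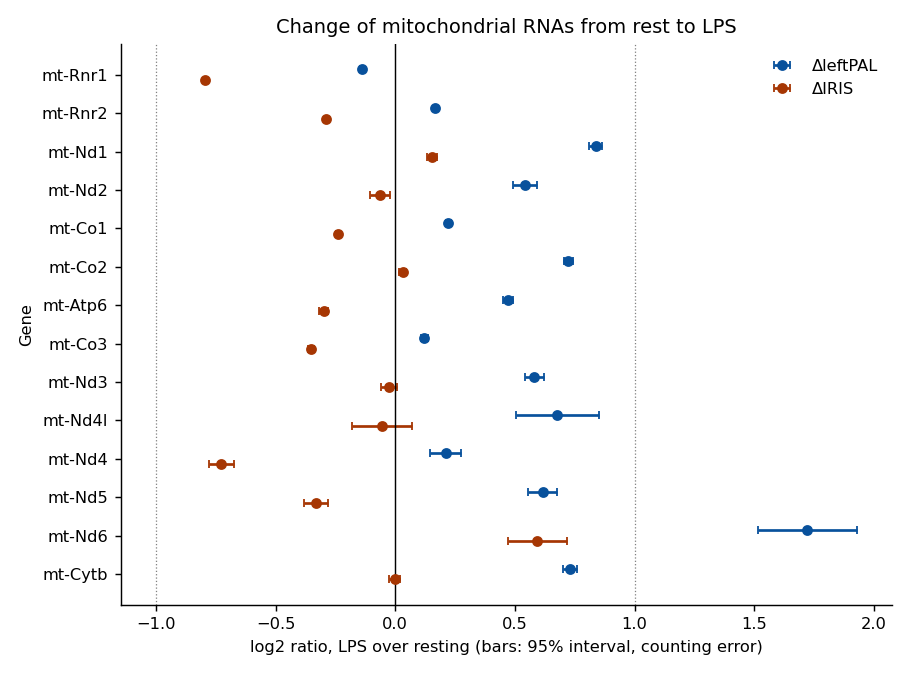
log2 ratio of LPS-activated over resting cells for the rRNA genes and 12 protein genes (each with its chromosome 1 copy where it has one), in ΔleftPAL (blue) and ΔIRIS (brown) cells. Bars are exact 95% intervals of counting error and dotted lines mark 2-fold. All 12 protein genes lie right of 0 in ΔleftPAL cells, and each point of ΔIRIS lies to the left of its ΔleftPAL point.

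mt-Nd6 (ENSMUSG00000064368, chrM:13552-14070, minus strand, GRCm38), the complex I subunit on the light strand, had the largest log2 ratio of the protein genes in gene counts on LPS in ΔleftPAL cells and between genotypes at rest. It had 244, 887, 883 and 1343 counts, or 9.99, 32.9, 30.4 and 45.8 CPM. Resting ΔleftPAL cells stood apart with the fewest, and LPS ΔIRIS cells had the most. The log2 ratio of LPS over resting cells was 1.72 (1.51 to 1.93) in ΔleftPAL and 0.59 (0.47 to 0.72) in ΔIRIS cells. Relative to its neighbour mt-Nd5 on the heavy strand, with which it shares 14 bases, there were 73.5, 158, 121 and 229 counts of mt-Nd6 per 1000. Per 1000 counts of all heavy-strand protein genes there were 1.83, 4.42, 3.59 and 5.83. In these gene counts both measures were higher after LPS in both genotypes, and higher in ΔIRIS than in ΔleftPAL cells.

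The kallisto estimates gave other values for mt-Nd6. These held 795, 1446, 2111 and 1781 estimated counts, log2 ratios of 0.84 and -0.10, and 2.78, 3.34, 4.16 and 3.65 per 1000 heavy-strand estimates. Per 1000 mt-Nd5 estimates they held 216, 208, 247 and 239, slightly lower after LPS in both genotypes with overlapping intervals. The gene counts of mt-Nd6 were 0.31, 0.61, 0.42 and 0.75 of the estimates, against 0.95 to 0.97 for mt-Nd1 and mt-Cytb. For mt-Nd5, used as the denominator above, they were 0.90, 0.81, 0.86 and 0.79, and for mt-Nd4 0.91, 0.76, 0.91 and 0.78. The difference between the tables was thus not confined to mt-Nd6 and also enters its ratio to mt-Nd5. The gene counts were made with a strand setting, while the strand setting of the kallisto run is not given in the sources used here. The direction of mt-Nd6 in ΔIRIS cells therefore held in gene counts alone, whereas it was higher after LPS in ΔleftPAL cells in both tables.

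The tRNA genes held few counts. They summed to 170, 447, 338 and 698 counts over 22 genes of 59 to 75 bases, and 6 of them had no count in any library. The floor of 3 counts equals 0.102 to 0.123 CPM. A further 4 had at most 3 counts in every library, and 9 had more but a mean under 50, with 80 counts at most. mt-Ts1, mt-Td and mt-Tk, without a count, lie between genes that have a copy on chromosome 1, as do mt-Tg and mt-Tr. Reads placed on that copy would be missing from these rows, so their counts set no upper bound on level. Whether such reads exist was not tested. Only mt-Tp, mt-Tt and mt-Tw had a mean of at least 50 counts. mt-Tp and mt-Tt, the tRNAs for proline and threonine, lie side by side on opposite strands next to the control region. They are printed here because they gave the largest LPS ratios among the tRNAs tested, with their anticodons in capitals.

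mt-Tp (chrM:15356-15422, minus strand): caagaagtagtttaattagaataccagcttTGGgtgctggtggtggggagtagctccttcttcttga

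mt-Tt (chrM:15289-15355, plus strand): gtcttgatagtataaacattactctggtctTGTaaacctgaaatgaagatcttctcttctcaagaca

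mt-Tp had 16, 96, 40 and 180 counts, a log2 ratio of 2.44 (1.67 to 3.31) in ΔleftPAL and 2.16 (1.66 to 2.69) in ΔIRIS cells. mt-Tt had 36, 114, 60 and 147 counts, ratios of 1.52 (0.97 to 2.10) and 1.28 (0.84 to 1.74). Both LPS libraries exceeded both resting libraries for each of these tRNAs. mt-Tp and mt-Tt averaged 50 counts only through the LPS libraries, so these values are a description alone. mt-Tw, the tryptophan tRNA, had 56, 100, 91 and 137 counts, ratios of 0.70 and 0.58. Counts of light-strand tRNA genes per count of heavy-strand tRNA genes were 0.371, 0.557, 0.565 and 0.745. The intervals of resting and LPS cells overlapped within each genotype, as did those of LPS ΔleftPAL and resting ΔIRIS cells. mt-Tp alone held 16, 96, 40 and 180 of the 46, 160, 122 and 298 light-strand counts, so these ratios do not describe the light-strand tRNA genes as a set. Between genotypes mt-Tp gave a ratio of 1.07 (0.20 to 2.01) at rest and 0.79 (0.42 to 1.16) after LPS, higher in ΔIRIS cells, but neither tRNA was 2-fold apart once 0.5 CPM was added. The intervals of mt-Tt, at 0.49 and 0.25, both included 0.

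The mitochondrial rRNAs did not follow the tRNAs. mt-Rnr1 (chrM:70-1024), the 12S rRNA of the small ribosomal subunit, had 14455, 13120, 21428 and 12346 CPM, log2 ratios on LPS of -0.14 in ΔleftPAL and -0.80 in ΔIRIS cells. mt-Rnr2 (chrM:1094-2675), the 16S rRNA, had 140397, 157663, 193886 and 158819 CPM, ratios of 0.17 and -0.29. Resting ΔIRIS cells were again the highest library for both. Counts of mt-Rnr2 per count of mt-Rnr1 were 9.71, 12.02, 9.05 and 12.9, higher after LPS in both genotypes. The part of the rRNA depletion in these values was not tested.

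**Figure D3:**
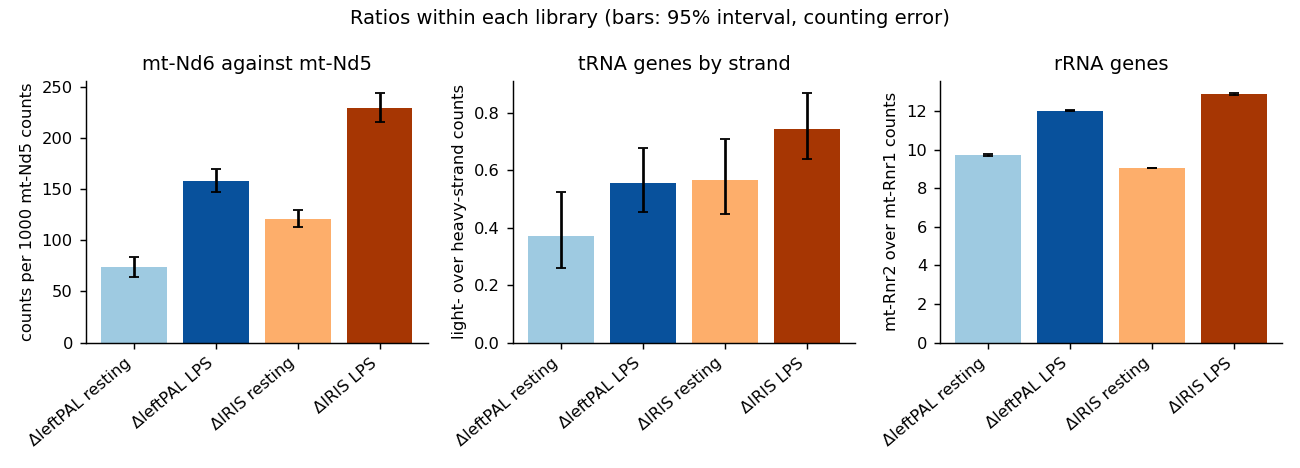
Ratios within each of the 4 libraries: mt-Nd6 counts per 1000 mt-Nd5 counts (left), light-strand over heavy-strand tRNA counts (middle) and mt-Rnr2 over mt-Rnr1 counts (right). Bars start at 0 and error bars are exact 95% intervals of counting error. In these gene counts the first and last ratios are higher after LPS in each genotype, which did not hold for the first in kallisto estimates, and the intervals of the tRNA ratios overlap between rest and LPS in each genotype.

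The same genes were then compared between ΔIRIS and ΔleftPAL cells. At rest all 12 protein genes were higher in ΔIRIS cells, with a median log2 ratio of 0.75, from 0.34 for mt-Co3 to 1.60 (1.398 to 1.81) for mt-Nd6. Of the 12, 2 genes, mt-Nd4 and mt-Nd6, were at least 2-fold higher and none lower. Of all genes tested, 1.83% were 2-fold higher and 1.02% lower, 2.85% together. mt-Nd4l lay at the threshold, with a ratio of 1.01 with its copy and 0.99 once 0.5 CPM was added to each level. The summed protein genes gave 0.64 from their own rows, 0.56 with the copies and 0.76 for the 7 genes little touched by a copy, while the median over all genes was 0.00.

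After LPS the genotypes lay close together. The 12 protein genes had a median ratio of 0.04, with 8 intervals above 0 and 4 below, and none was 2-fold apart. Of all genes tested, 0.567% were 2-fold higher and 1.41% lower, 1.98% together. Their range was -0.13 for mt-Co2 to 0.48 for mt-Nd6. The summed protein genes gave 0.08 from their own rows and -0.00 with the copies. mt-Rnr1 gave 0.57 at rest and -0.09 after LPS, and mt-Rnr2 gave 0.47 and 0.01, the last of which was below 0 when immunoglobulin genes were left out of the TMM factors. mt-Nd5 gave 0.89 at rest and -0.06 after LPS, the latter positive in kallisto estimates.

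**Figure D4:**
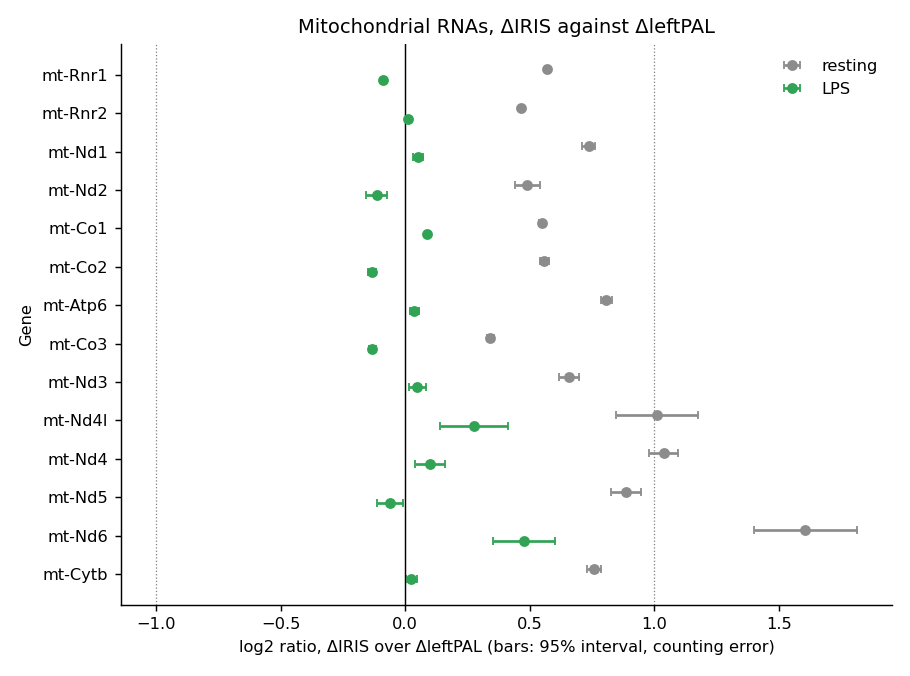
log2 ratio of ΔIRIS over ΔleftPAL cells for the rRNA genes and 12 protein genes (with their chromosome 1 copies) at rest (grey) and after LPS (green), with exact 95% intervals of counting error and dotted lines at 2-fold. All resting points lie right of 0, from 0.34 for mt-Co3 upwards, and the LPS points scatter around 0 up to 0.48 for mt-Nd6.

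Nuclear pseudogene copies elsewhere differed too. Gm13341, a copy of mt-Co2 on chromosome 2, had 454, 910, 1237 and 1011 counts, and Gm13340, a copy of mt-Co1 next to it, had 194, 263, 846 and 681. Their ratios between genotypes at rest were 1.17 and 1.81, and 0.03 and 1.21 after LPS. mt-Co1 itself, with its chromosome 1 copy, gave 0.55 at rest and 0.09 after LPS, the same directions as Gm13340 with smaller ratios. mt-Co2 with its chromosome 1 copy gave 0.56 at rest, the same direction as Gm13341, but -0.13 after LPS, the opposite sign. Whether these counts are reads of mitochondrial RNA placed there was not tested.

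The respiratory complexes also contain subunits from nuclear genes, and these differed from the mitochondrial ones on LPS. Of 36 nuclear genes of complex I, 24 were at least 2-fold higher after LPS in ΔleftPAL and 27 in ΔIRIS cells, with medians of 1.17 and 1.29. The corresponding counts were 8 and 8 of 9 for complex III, 11 and 10 of 11 for complex IV, and 17 and 16 of 18 for complex V, with medians between 1.39 and 1.53. Of all genes tested, 20.1% were higher in ΔleftPAL and 21.6% in ΔIRIS cells. None of these nuclear genes was 2-fold lower, beside 15.5% and 17.3% of all genes. None was 2-fold apart between genotypes, where only 2.85% of all genes at rest and 1.98% after LPS were. Complex II, which has no mitochondrial subunit, had 2 of its 4 genes higher in each genotype.

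Single subunits illustrate the gap. Atp5b, the catalytic β subunit of ATP synthase, had 326, 1205, 342 and 1253 CPM, ratios of 1.89 and 1.87, while mt-Atp6 of the same complex gave 0.47 and -0.30. Cox5a of complex IV had 25.2, 87.6, 26.6 and 86.6 CPM, ratios of 1.78 and 1.68. Cyc1, cytochrome c1 of complex III, had 29.5, 91.2, 23.8 and 98.8 CPM, ratios of 1.61 and 2.03. In ΔIRIS cells, 11 of the 12 mitochondrial genes had a lower ratio than any nuclear gene of their own complex, and in ΔleftPAL cells 6 of 12, among them mt-Cytb only narrowly (0.73 against 0.75). The exception in ΔIRIS cells was mt-Nd6, and it was the only mitochondrial gene of complex I in ΔleftPAL cells above the nuclear median. Both statements hold for the gene counts of mt-Nd6, whereas its kallisto ratios of 0.84 and -0.10 lay below that median and, in ΔIRIS cells, below every nuclear gene of complex I.

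**Figure D5:**
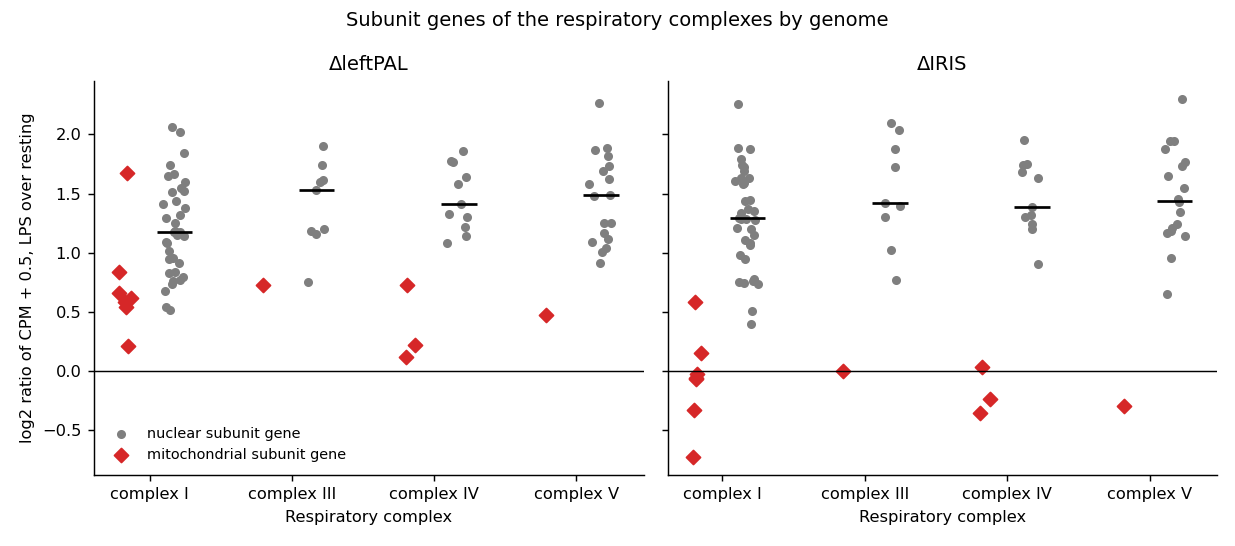
log2 ratio of CPM + 0.5 of LPS-activated over resting cells for the mitochondrial (red diamonds) and nuclear (grey points, line at the median) subunit genes of complexes I, III, IV and V in ΔleftPAL (left) and ΔIRIS (right) cells. All nuclear genes lie above 0, and all mitochondrial genes of complexes III to V lie below every nuclear gene of their complex in both genotypes.

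Genes that maintain and express the mitochondrial genome differed less uniformly on LPS. Tfam, which packages mitochondrial DNA and starts its transcription, had 57.1, 67.8, 54.3 and 79.2 CPM, ratios of 0.25 and 0.54. Polrmt, the mitochondrial RNA polymerase, had 27.4, 22.5, 17.6 and 23.2 CPM, ratios of -0.28 and 0.39, and was lower in ΔIRIS cells at rest (-0.63). Tfb2m, its initiation factor, had 18.5, 23.9, 28.3 and 25.9 CPM and was higher in ΔIRIS cells at rest (0.60). None of these was 2-fold apart in any comparison. Of the 10 transcription genes, 1 in ΔleftPAL and 2 in ΔIRIS cells were 2-fold higher after LPS, at or below the 20.1% and 21.6% of all genes tested. Mrpl12, a ribosomal protein, was among them (1.95 and 2.08). Of the 9 tested regulators of mitochondrial biogenesis, none was 2-fold higher and 1, Myc in ΔleftPAL cells (-1.01), was lower, beside 15.5% of all genes, and this call was lost under 1 of 5 other settings (-0.91).

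Among 16 genes of mtDNA maintenance, 1 was 2-fold higher and 3 lower in ΔleftPAL cells, and 4 higher and 2 lower in ΔIRIS cells, while 20.1% and 21.6% of all genes tested were higher and 15.5% and 17.3% lower in the respective genotype. Tk2, the kinase that supplies pyrimidine nucleotides to the organelle, had 57.1, 8.80, 48.3 and 7.88 CPM, ratios of -2.63 and -2.54. Dguok, its purine counterpart, gave -1.12 and -1.07, which fell short of 2-fold in both genotypes under 1 of 5 other settings (-0.99 and -0.87). Dna2, a nuclease and helicase that also works in the nucleus, gave 2.14 and 2.33. The polymerase gene Polg gave -0.04 and 0.32, the helicase Twnk 0.66 and 0.73, and the single-strand binding protein Ssbp1 0.42 and 0.43.

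Of 22 genes of mitochondrial RNA processing and decay, 5 in ΔleftPAL and 8 in ΔIRIS cells were 2-fold higher after LPS and none lower. Of all genes tested, 20.1% and 21.6% were higher and 15.5% and 17.3% lower. Slirp and Lrpprc, which bind each other and stabilise mitochondrial mRNAs, gave 1.71 and 2.07, and 0.99 and 1.17. Rexo2, an exonuclease that clears short RNAs, gave 2.55 and 2.11. Elac2, which cuts the 3′ ends of tRNAs from the precursor, gave 0.92 and 1.32, and Trmt10c, a subunit of the enzyme that cuts their 5′ ends, 0.83 and 0.52. The degradosome genes Pnpt1 and Supv3l1 gave 0.70 and 1.02, and 1.00 and 0.97. The ΔIRIS call of Pnpt1 was lost under 3 of 5 other settings (lowest 0.98), as was that of Tfb1m among the transcription genes (1.02, lowest 0.98). Mtpap, the poly(A) polymerase of the organelle, gave 0.04 and -0.19.

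Translation needs modified and charged tRNAs. Of 18 genes of tRNA modification, 4 and 6 were 2-fold higher, and of 20 aminoacyl-tRNA synthetase genes 3 and 6, with none lower. The synthetases with the highest ratios, Gars (1.90 and 2.07) and Kars (1.80 and 1.99), also charge cytosolic tRNAs. Of 37 assembly factors tested, 8 and 15 were higher, and 0 and 2 lower. Of all genes tested, 20.1% and 21.6% were higher and 15.5% and 17.3% lower, so the shares of higher genes in these lists were near or below that of all genes in ΔleftPAL cells and above it in ΔIRIS cells. No gene of these lists was 2-fold apart between the genotypes at rest or after LPS, where 2.85% and 1.98% of all genes tested were.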

How the data were processed

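RNA of CD43- splenocytes was depleted of rRNA, prepared with a stranded total RNA kit and sequenced as paired reads of 150 nt. Per the submitters' processing notes and the methods, the authors mapped reads with STAR 2.4.0a to mm10 and counted fragments with featureCounts (Subread 1.4.6-p1) under each gene name, with multi-mapping reads counted at their primary alignment and a strand setting. The authors also deposited kallisto 0.42.3 estimated counts and TPM per transcript, whose index and settings are not given in the sources used here. These were summed per gene name, and estimated counts were rounded for intervals. Mitochondrial rRNAs and tRNAs could not be read from the kallisto tables.

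A row of genes without a name (0.00876% to 0.0264% of counts) was left out. TMM factors came from edgeR 4.0.16 in R 4.3.3, and intervals from scipy 1.17.1 in Python 3.11.15, as exact Clopper-Pearson intervals of a read share turned into log2 ratios. With 1 library per group no test between groups was made. Genes count as apart at 2-fold on the scale log2(CPM + 0.5), where folds of weakly expressed genes come out too small. Such counts cover the 11286 genes that averaged 50 counts or more. A count of 3 was the floor. The procedure was tested on simulated data.

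Copies were annotated transcripts of GENCODE M21 that share at least 30 words of 31 bases with a member, aligned with edlib. The reference is not of the 129 strain. The 13 protein genes, 2 rRNA genes and tRNA genes averaging 50 counts or more are named, and of each nuclear list up to 4 genes with the largest mean LPS ratio plus a fixed set of factors, of which a selection is printed. The members and lists were chosen with earlier results of these data known. Alternatives were other library sizes, DESeq2 1.42.0 size factors, kallisto values, other filters and a prior of 5 CPM. Sums with the copies and the set of 7 genes were added after the data were seen.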

Additional observations from a re-analysis of the deposited data

Results flagged for a closer look

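In 7 genes the LPS ratio was above 0 in one genotype and below 0 in the other, with both counting intervals clear of 0. The difference of the log2 ratios, ΔIRIS minus ΔleftPAL, was -0.46 for mt-Rnr2, -0.61 for mt-Nd2, -0.46 for mt-Co1, -0.77 for mt-Atp6, -0.47 for mt-Co3, -0.94 for mt-Nd4 and -0.95 for mt-Nd5, with copies added for mt-Co1, mt-Atp6, mt-Co3 and mt-Nd4. With 1 library per group the difference was not tested. In kallisto estimated counts mt-Nd2 was above 0 in both genotypes, and the ΔIRIS ratio of mt-Nd5 was only -0.05. In kallisto TPM mt-Co3 was below 0 in both, as was mt-Co1 with its copy. The opposite directions all rest on the same resting libraries, which also differ in summed erythroid and platelet markers (41571 and 12.3 CPM in ΔleftPAL, 29155 and 32.7 CPM in ΔIRIS cells), whose part was not tested.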

How the results depend on the processing

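No paired analysis was possible because each group has 1 library, although resting and LPS cells of a genotype may come from the same animals. Leaving out a library would remove the comparisons it enters. The table of kallisto gave no value for the rRNAs. For the summed protein genes, log2 ratios of LPS over resting ΔleftPAL cells were 0.36 with total counts, 0.42 with DESeq2 size factors, 0.57 with kallisto estimated counts, 0.25 with kallisto TPM, 0.38 with the copies, 0.50 with kallisto and copies, and 0.72 for the 7 genes little touched by a copy. In ΔIRIS cells the same settings gave -0.15, -0.13, 0.091 (reversed), -0.29, -0.19, -0.019 and -0.013, with -0.13 for TMM without immunoglobulin genes and -0.12 without mitochondrial genes. For ΔIRIS over ΔleftPAL at rest they gave 0.61, 0.65, 0.61, 0.55, 0.56, 0.59 and 0.76. After LPS they gave 0.10, 0.10, 0.12, 0.020, -0.0013 (reversed), 0.069 and 0.029, with 0.066 for TMM without immunoglobulin genes. With that last scaling the rRNA ratio between genotypes after LPS was -0.011 (reversed). The cause of these shifts was not tested. The number of protein genes 2-fold apart became 0 in kallisto TPM for LPS in ΔleftPAL cells and 4 in kallisto counts between genotypes at rest. Counts over all genes between genotypes at rest, 322 in the report's setting, were 128 with a prior of 5 CPM, 182 at a mean of at least 200 counts and 486 without a filter, and after LPS 83 and 128 in place of 223. The share of counts on protein genes, in the order of libraries used above, was 0.569%, 0.740%, 0.866% and 0.789% without immunoglobulin genes, 0.673%, 0.869%, 1.10% and 0.936% without mitochondrial rRNA and tRNA, 1.70%, 2.07%, 2.46% and 2.04% in kallisto, and 1.39%, 1.69%, 2.01% and 1.72% with copies. mt-Nd6 per 1000 heavy-strand counts was 2.78, 3.34, 4.16 and 3.65 in kallisto, 0.743, 1.89, 1.53 and 2.63 with copies, and 5.32, 10.7, 9.58 and 14.7 against the 6 heavy-strand genes little touched by a copy. Of 68 ratios of single members, 8 changed sign and 2 their 2-fold call under at least 1 scaling or in kallisto estimated counts, and of 248 ratios of nuclear genes 26 and 18 did. In kallisto TPM, run gene by gene after the data were seen, 7 of 48 ratios of protein genes differed in sign from the report (9 with copies).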
